A study of Mus musculus with 12 samples.

Results

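Binding of ESRRB in mouse embryonic stem cells was measured with ChIP-seq, in which DNA fragments pulled down with an antibody are sequenced, and is described here at 10 families of homeobox genes: Hoxa, Hoxb, Hoxc, Hoxd, Lhx, Nkx, Six-type, Dlx, Irx and Msx. Of 86201 regions with deposited read counts, 243 were taken, those whose centre lay inside or within 50 kb of a gene of these families and closer to it than to any other protein-coding gene. The 82 genes were found by symbol among the protein-coding genes of RefSeq on GRCm38.p6 (mm10), and 69 of them had at least 1 region. The 13 genes with no region of their own were 3 of Hoxa, 4 of Hoxb, 2 of Nkx and 1 each of Hoxc, Hoxd, Dlx and Msx. By family the regions numbered 25 for Hoxa, 18 for Hoxb, 16 for Hoxc, 21 for Hoxd, 37 for Lhx, 48 for Nkx, 28 for the Six-type genes, 17 for Dlx, 22 for Irx and 11 for Msx. This rule used no signal values, but the members were chosen with earlier results of these data known. A region belongs to a gene here by distance alone, and regions of 1 gene, or of neighbouring genes in a cluster, are not independent of each other.

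The comparison is between 2 lines, each with 3 ESRRB ChIP libraries. Both carry the NanogKO:Esrrb genotype, a Nanog knockout with Esrrb, and the second, NanogKO:Esrrb:Nanog, has Nanog in addition. They are called "without Nanog" and "with Nanog" below, and a change is always with relative to without. Libraries are named by the letter of their count column, so that "C without Nanog" is library C of the line without Nanog, and values are given in the order A, B, C. All samples share the cell line name N{delta}:cE:iN in the labels and grew untreated in medium with serum and leukaemia inhibitory factor. The sources used here do not say how Nanog was supplied, whether a line is a single clone, whether libraries came from separate cultures, or which of the single and double fixations named in the protocol a library had. So the p-values rest on the variation among these libraries alone, part or all of which may be technical. Read counts at ESRRB regions measure no expression, so neither the embryonic stem cell label nor the level of NANOG could be checked.

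Homeobox genes encode transcription factors that bind DNA through a homeodomain. The Hox genes sit in 4 clusters and assign position along the body axis, with genes at the 13 end acting towards the tail, while Lhx, Nkx, Six-type, Dlx, Irx and Msx factors pattern the brain, sense organs, gut, heart, limbs and face. In embryonic stem cells most of these genes are known to be held silent by Polycomb complexes until differentiation. ESRRB, an estrogen-related receptor with no known hormone ligand, helps keep embryonic stem cells pluripotent and binds as a monomer to an extended AGGTCA element, and NANOG, itself a homeodomain protein, is a central factor of the pluripotent state.

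Libraries held 2734338 to 5193707 counts without Nanog and 6689166 to 8382646 with Nanog, so the same region is measured with more counting error without Nanog. Values are in CPM, read counts scaled to a common library size with TMM factors, and a region was called where the Benjamini-Hochberg adjusted p of edgeR's quasi-likelihood test, fitted over 84892 regions, was under 0.05. The count filter removed 6 of the 243 regions and left 237. In 5 of the 14 regions later called higher and 1 of the 18 called lower, fewer than 3 libraries of the line with less signal reached the level of this filter. The higher ones start at 155717359 (Lhx4), 38340781 (Lhx2), 23158139 and 23161300 (Nkx6-3) and 92402888 (Irx5), and the lower one at 85616181 (Six3). Their calls are read as descriptions. Median signal over these 237 was 5.78 CPM without and 5.88 CPM with Nanog, against 6.82 and 6.59 CPM over all regions tested, and 139 of the 237 lay below the median signal of all regions.

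Sequence was at hand for promoters alone, as RefSeq windows on GRCm38.p6 from 250 bases before to 50 after an annotated start, for 53 of the 82 genes in 60 windows. A region covered the start in 11 of these windows. The letters AAGGTCA, which are the core of the element bound by ESRRB, were searched on both strands. They stood in 1 of the 60 windows (1.67%), that of Hoxd8, against 4.08% of 21262 windows of protein-coding genes. The shorter AGGTCA, contained in AAGGTCA and added to the search after the first result was seen, was found in 9 windows (15.0%) against 14.7% of all. The longer TCAAGGTCA was found in 0 of the 60 and in 0.334% of all. The upstream parts of the 4 windows that hold a match before a start covered by a region are printed 5′ to 3′ on the strand of the gene. In these an ESRRB region and these letters meet upstream of a family gene start. Capitals mark AAGGTCA in Hoxd8, and AGGTCA or its reverse complement TGACCT in the others. In each case the match lay inside the region.

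Hoxd8, plus strand, chr2:74704365-74704614: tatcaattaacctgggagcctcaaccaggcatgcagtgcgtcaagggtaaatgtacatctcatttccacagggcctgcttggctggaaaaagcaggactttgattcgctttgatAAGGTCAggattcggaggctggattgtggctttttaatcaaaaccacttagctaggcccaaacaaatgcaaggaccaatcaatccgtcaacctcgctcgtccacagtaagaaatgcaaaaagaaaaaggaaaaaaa

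Hoxd10, plus strand, chr2:74691641-74691890: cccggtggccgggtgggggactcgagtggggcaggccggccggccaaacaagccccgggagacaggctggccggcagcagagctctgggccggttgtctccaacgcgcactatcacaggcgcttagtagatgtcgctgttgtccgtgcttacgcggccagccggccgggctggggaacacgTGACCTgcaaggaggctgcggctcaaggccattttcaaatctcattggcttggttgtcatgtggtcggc

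Hoxb4, plus strand, chr11:96318017-96318266: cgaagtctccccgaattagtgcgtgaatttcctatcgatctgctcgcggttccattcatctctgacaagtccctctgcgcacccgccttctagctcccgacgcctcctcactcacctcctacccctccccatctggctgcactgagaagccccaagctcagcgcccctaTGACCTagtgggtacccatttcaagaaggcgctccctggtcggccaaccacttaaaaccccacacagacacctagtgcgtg

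Dlx1, plus strand, chr2:71529195-71529444: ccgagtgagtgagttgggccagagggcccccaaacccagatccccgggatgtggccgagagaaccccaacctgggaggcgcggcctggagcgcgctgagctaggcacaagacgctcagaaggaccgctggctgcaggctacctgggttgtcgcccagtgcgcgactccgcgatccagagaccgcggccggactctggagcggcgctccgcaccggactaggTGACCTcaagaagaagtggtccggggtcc

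Matches begin 136, 69, 81 and 29 bases before the start of Hoxd8, Hoxd10, Hoxb4 and Dlx1. Hoxa5 had its AGGTCA at 41 bases after the start, also inside the region that covers that start, and its window is not printed. A match in these letters is a description of the sequence and not a binding site. Family windows were richer in CpG than promoters at large, with a median of 19.5 CpG per window against 13 and a GC content of 61.0% against 56.3%.

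None of the regions over a start was called. The one at Hoxd8, on chromosome 2 at 74703894 to 74704900, held 11.6, 15.1 and 14.9 CPM without Nanog and 14.3, 17.3 and 14.3 CPM with Nanog, with a log2 fold change of 0.12 ± 0.19 (SE). At the start of Hoxb4 the region at 96317625 to 96318404 on chromosome 11, counted under the overlapping Hoxb3, held 11.2, 10.7 and 17.1 CPM without and 12.8, 13.6 and 14.9 CPM with Nanog. The lines overlap at both. The region over the start of Hoxa5, which by the nearest-gene rule counts under the overlapping Hoxa3, at 52204205 to 52204990 on chromosome 6, was the strongest of those over a start, with 33.9, 22.2 and 29.2 CPM without and 27.6, 28.7 and 25.6 CPM with Nanog. Its log2 fold change was -0.05 ± 0.16. At Dlx1, a factor of forebrain interneurons, values were 8.18 ± 1.4 and 9.32 ± 1.2 CPM (SD, n = 3 per line). The remaining named starts, of Hoxd11, Lhx3, Six4, Irx3 and Msx2, had log2 fold changes from -0.18 to 0.24, and that of Nkx2-9 had too few counts to be tested. At Hoxd10, which patterns the trunk and limb, the region at 74691687 to 74692134 on chromosome 2 held 5.59, 3.37 and 6.86 CPM without and 8.46, 6.72 and 6.37 CPM with Nanog, which overlap. At Irx3 the libraries of the lines did not overlap, yet the means of 12.8 ± 0.90 and 11.2 ± 0.55 CPM gave no call.

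Over the 10 families, 14 regions rose with Nanog, 18 fell and 205 were not called. That is 32 of 237, or 13.5%, where 19.2% of all regions tested were called, 9.42% higher and 9.78% lower. The median log2 fold change was 0.04 over the members and -0.01 over all regions. Among the members it was -0.0017 when B without Nanog was left out and 0.13 when C without Nanog was. Changes of at least 2-fold in either direction were seen in 13 members (5.49%) against 6.60% of all regions tested. Libraries of the lines did not overlap in 67 members (28.3%) against 33.8% of all. Members are on average weaker than all regions. Above the median signal 20 of 98 members were called (20.4%, against 25.7% of all such regions), and below it 12 of 139 (8.63%, against 12.7%). So the share was lower among members on both sides of the median. Whether signal accounts for part of the difference was not tested. The count of regions that rose was 8 when B with Nanog or C with Nanog was left out, and the count that fell was 8 when C without Nanog was left out and 11 when B with Nanog was. DESeq2 called 7 higher and 12 lower. The share called fell over the whole table as well, from 19.2% to 12.0% with DESeq2 (members 8.02%), 13.5% when C without Nanog was left out (members 7.88%) and 11.5% when B with Nanog was (members 8.05%). No list test was made, so these shares are read as descriptions.

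**Figure D1:**
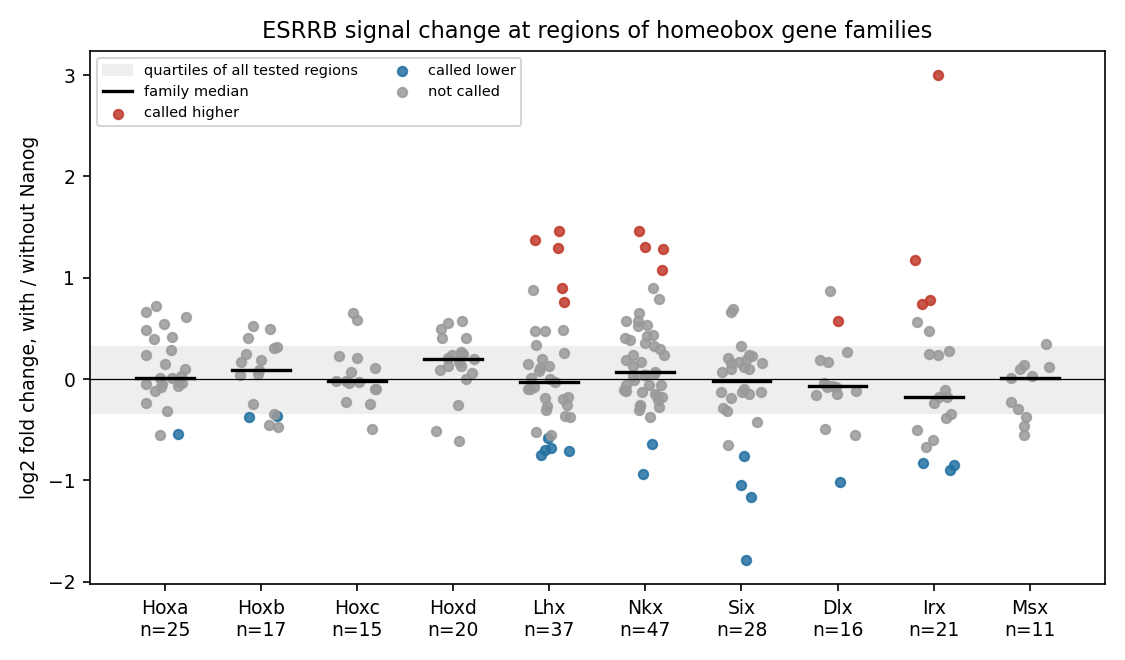
Log2 fold change of ESRRB signal (y axis, with over without Nanog) for each tested region, by family (x axis, n is the number tested). Red and blue points are called higher and lower, black bars are family medians, and the grey band holds the quartiles of all 84892 regions (-0.33 to 0.32); no Hox point reaches 2-fold, whereas Lhx, Nkx, Six-type, Dlx and Irx each have points beyond it.

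**Figure D2:**
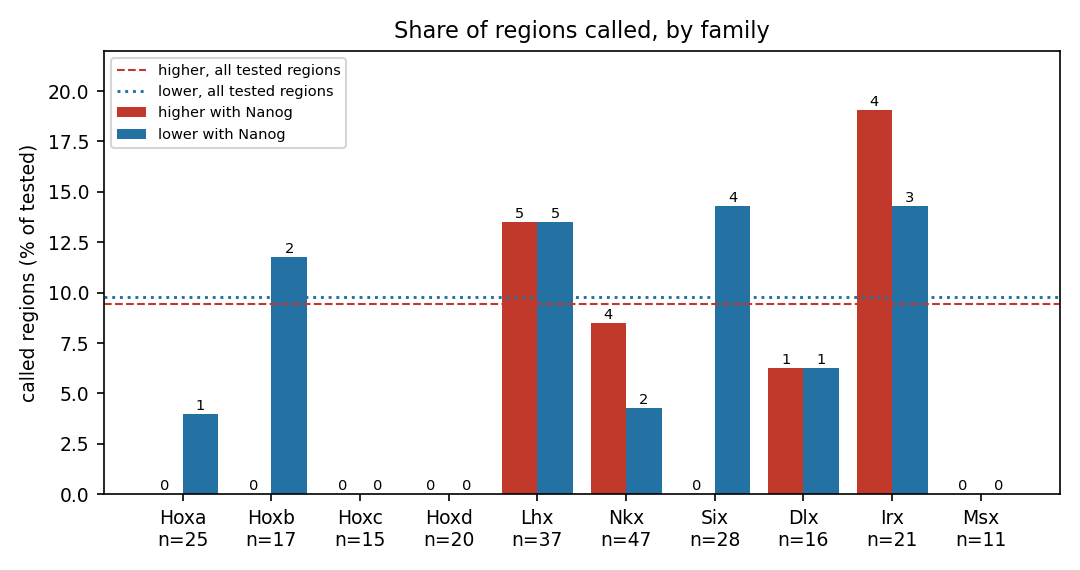
Share of tested regions called higher (red) or lower (blue) in each family, in percent, with the number of regions above each bar. The dashed and dotted lines give the shares over all regions, 9.42% higher and 9.78% lower; Hoxc, Hoxd and Msx have no call and the 4 Hox families none that is higher in this fit, against 0 to 2 over the alternative fits.

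In the 4 Hox families 3 of 77 tested regions fell and 0 rose (edgeR). That is 3.90% called, against 19.2% of all regions and 29 of 160 (18.1%) in the other 6 families, a difference that was not tested. At an unadjusted p under 0.05 edgeR gave 7 higher and 6 lower Hox regions. These are 9.09% and 7.79%, against 15.2% and 16.4% of all regions. DESeq2 called 0 higher and 2 lower, and limma-voom 1 higher and 3 lower. A block by column letter gave 2 higher and 4 lower, where the share called over all regions was 24.6%. With column totals, with a loess offset on signal, and when A or B without Nanog was left out, 1 Hox region was higher. Over the 15 alternative fits there were 1 to 7 Hox calls, with 7 when B without Nanog was left out and 1 when C without Nanog or B with Nanog was. No Hox region reached a 2-fold difference, and their log2 fold changes ran from -0.61 to 0.72. The precision at Hox regions was similar to that elsewhere, with a median standard error of 0.27 against 0.26 over all regions. Their signal was slightly lower, with a median log-CPM of 2.62 against 2.78. Above the median signal 3 of 33 Hox regions were called (9.09%), and below it 0 of 44. Over the table the shares were 25.7% and 12.7%. The 2 lines were fully apart, library by library, in 19.5% of Hox regions, against 33.8% of all.

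Regions stood at 19.6 per 100 kb inside the Hoxd cluster, 15.2 in Hoxa, 11.2 in Hoxc and 6.90 in Hoxb, counted from the first base of the first gene to the last base of the last. The Hoxb span is 174 kb, against 96.9 to 116 kb for the others. It takes in a stretch with no Hox gene between Hoxb13 and Hoxb9, from 96196610 to 96271330 on chromosome 11. The differences in density were not tested. In Hoxa, Hoxc and Hoxd the strongest region was nearest to the gene numbered 13. In Hoxb it was assigned to Hoxb9, with the next strongest beside Hoxb13. The plot along the clusters shows each region in both lines.

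**Figure D3:**
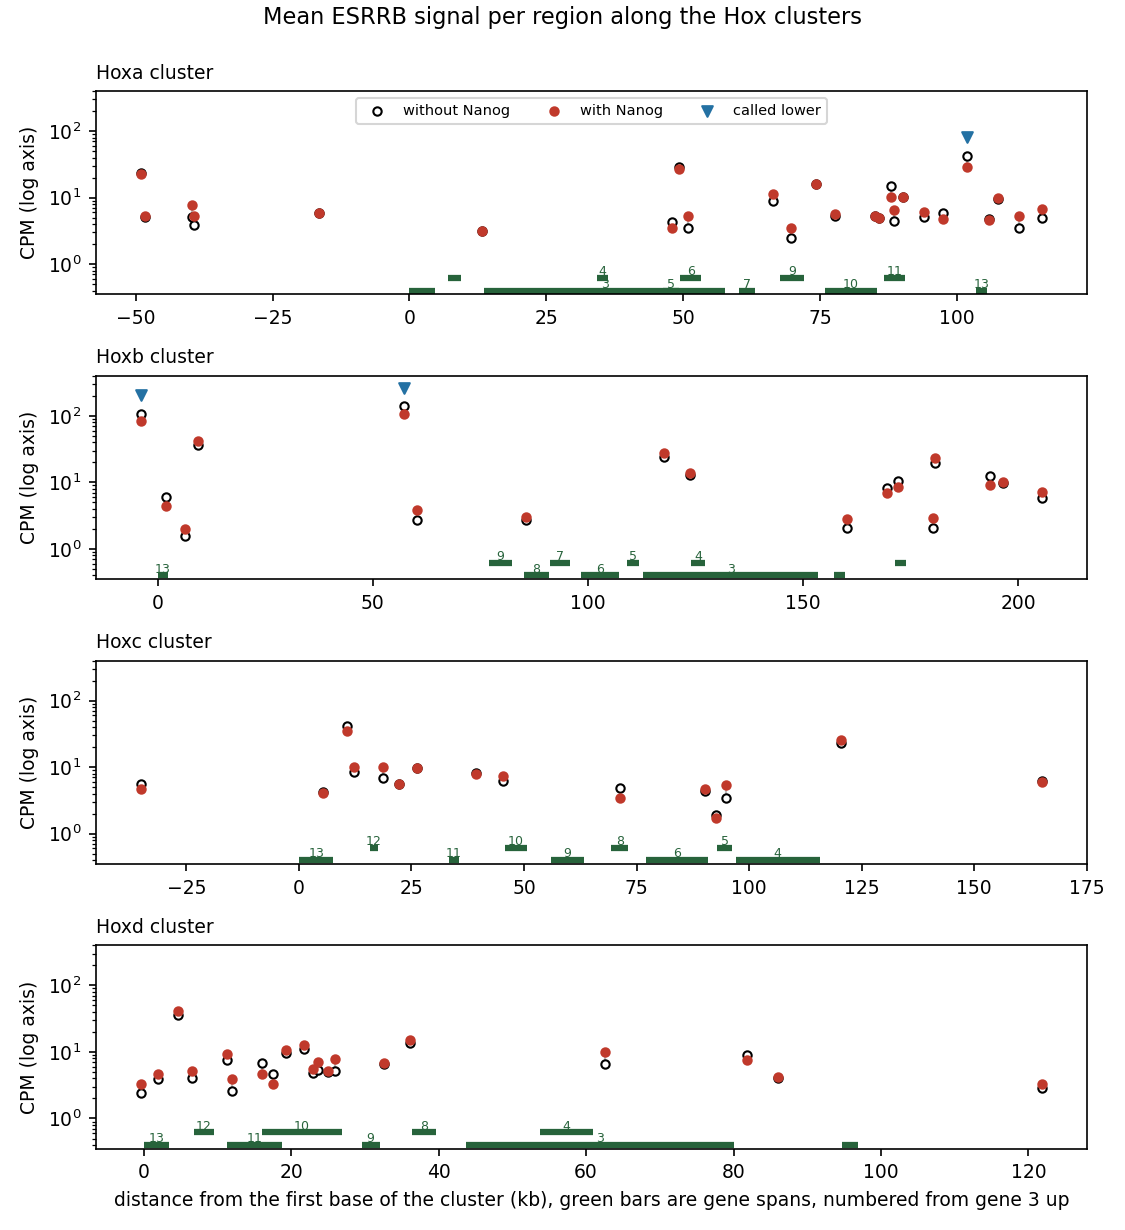
Mean ESRRB signal of each tested region (y axis, CPM on a log axis) against distance from the first base of its Hox cluster in kb, without Nanog (open circles) and with Nanog (red), n = 3 libraries each. Green bars are gene spans, with the numbers of genes 3 to 13, and blue triangles mark the 3 regions called lower, at Hoxa13, Hoxb13 and Hoxb9; no other Hox region was called.

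Hoxa13, which acts in the distal limb and hindgut, had the 1 call of its cluster. The region spans 52256985 to 52257466 on chromosome 6, 1.6 kb from the gene. It held 45.9, 35.9 and 44.7 CPM without Nanog and 28.0, 26.4 and 32.2 CPM with Nanog, and no library of one line reached the other. The log2 fold change was -0.54 ± 0.14 (edgeR, adjusted p = 0.00632), and the call held in all 15 alternative fits, with -0.64 to -0.48 as libraries were left out. The other 24 Hoxa regions were not called. Of these the strongest was the one over the start of Hoxa5.

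Hoxb had the 2 strongest regions of all families, both called lower by a small amount. A wide region 19.8 kb from Hoxb9 in the stretch between Hoxb13 and Hoxb9, at 96250437 to 96252572 on chromosome 11, held 149, 115 and 151 CPM without and 115, 94.0 and 111 CPM with Nanog. The highest library with Nanog, at 115 CPM, touches the lowest without. The log2 fold change was -0.38 ± 0.11 (edgeR, adjusted p = 0.0144). Next to Hoxb13, a gene of the tail and prostate, a region at 96189948 to 96190752 held 113, 99.0 and 109 CPM without and 90.4, 72.6 and 86.5 CPM with Nanog, a log2 fold change of -0.37 ± 0.11 (edgeR, adjusted p = 0.0158). The calls held in 10 and 11 of the 15 alternative fits, and both were lost when A without Nanog, C without Nanog or B with Nanog was left out and with a loess offset on signal (edgeR, adjusted p = 0.153 and 0.118, log2 fold changes -0.20 and -0.22). The Hoxb9 call was also lost with DESeq2 (adjusted p = 0.0507). Log2 fold changes were -0.48 to -0.29 and -0.42 to -0.27 as libraries were left out. A second strong region by Hoxb13, at 96202859 to 96204618, held 36.9 ± 3.2 and 41.8 ± 0.99 CPM and was not called.

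Hoxc and Hoxd had no call among 15 and 20 tested regions by edgeR, DESeq2 or limma-voom. At an unadjusted p under 0.05 edgeR gave 2 higher and 0 lower in Hoxc and 2 higher and 1 lower in Hoxd. The shares higher were 13.3% and 10%, against 15.2% of all regions, and those lower 0% and 5%, against 16.4%. Their strongest regions lay 3.0 kb from Hoxc13 and 1.3 kb from Hoxd13. The Hoxc13 region held 38.8, 35.3 and 48.8 CPM without and 38.5, 30.8 and 35.9 CPM with Nanog, which overlap. The Hoxd13 region, at 74672553 to 74673323 on chromosome 2, held 36.2, 32.5 and 37.8 CPM without and 43.3, 42.0 and 38.0 CPM with Nanog, just apart, with a log2 fold change of 0.21 ± 0.13 (edgeR, adjusted p = 0.299). In Hoxd 17 of 20 regions (85%) had a log2 fold change above 0, with a median of 0.20, against 48.9% of all regions. Of the 21 Hoxd regions 16 were in the deposited peak list with Nanog alone. Of all such regions within 50 kb of a gene 59.7% were above 0. Libraries did not overlap in 4 of the 20 (20%, against 33.8% of all). These differences were not tested. In Hoxc 6 of 15 regions had a log2 fold change above 0.

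Lhx genes encode LIM-homeodomain factors of the brain, eye and pituitary. They had calls at 10 of 37 regions (27.0%, against 19.2% of all regions), and all 8 genes had a region. Of the calls 5 were higher and 5 lower (13.5% each, against 9.42% and 9.78% of all regions). These differences were not tested. The higher calls include the regions starting at 155717359 (Lhx4) and 38340781 (Lhx2). At each, 1 of the 3 libraries without Nanog reached the level of the count filter, so the shares called and higher are read as descriptions. Lhx3 and Lhx4, related factors of the pituitary and motor neurons, held 3 of the 5 increases. At Lhx3, 4.8 kb outside the gene at 26195161 to 26195677 on chromosome 2, signal was 4.10, 5.05 and 7.26 CPM without and 13.4, 13.8 and 17.2 CPM with Nanog. The lowest library with Nanog was far above the highest without. The log2 fold change was 1.37 ± 0.24 (edgeR, adjusted p = 0.000119). A second Lhx3 region, 29.1 kb away at 26170924 to 26171310, went the other way, from 12.4 ± 2.6 to 7.78 ± 1.3 CPM (log2 fold change -0.70 ± 0.22). That call was lost with DESeq2 and when C without Nanog, A with Nanog or B with Nanog was left out. The region over the start of Lhx3 held 4.29 ± 0.68 and 3.79 ± 1.3 CPM.

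Inside Lhx4, 2 neighbouring regions were both called higher. The first (chromosome 1, 155717359 to 155717630) went from 2.14 ± 1.1 to 5.44 ± 1.4 CPM and the second, at 155717853 to 155718188, from 3.64 ± 1.6 to 6.60 ± 0.36 CPM. The first call was lost when C without Nanog was left out, and of the 6 fits with a library left out the second was kept in the one without A without Nanog. With DESeq2 the second was lost (adjusted p = 0.0939). At the first, 1 of the 3 libraries without Nanog reached the level of the count filter, so that call is read as a description. The strongest Lhx4 region, at 155736367 to 155738041, held 38.6 ± 7.5 and 38.3 ± 3.1 CPM and was not called.

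At Lhx8, a factor of cholinergic forebrain neurons and of oocytes, calls went both ways. The strongest Lhx region, 34.7 kb away at 154364941 to 154365530 on chromosome 3, held 45.9, 49.4 and 56.9 CPM without and 30.0, 33.3 and 29.9 CPM with Nanog, a clear separation with a log2 fold change of -0.72 ± 0.13 (edgeR, adjusted p = 0.000234). A region further out, at 154377561 to 154377985, rose from 8.55 ± 0.85 to 14.3 ± 1.5 CPM, a call lost when library C of either line was left out. Another, 3.6 kb from the gene, fell from 15.0 ± 3.8 to 10.1 ± 1.2 CPM with overlapping libraries. That call held in 5 of the 15 alternative fits and was lost with DESeq2 (adjusted p = 0.103). Of the 6 fits with a library left out it was kept in the one without B without Nanog. Lhx2, an eye and forebrain factor, also had 1 call each way, both inside the gene. Signal went from 1.63 ± 0.86 to 4.27 ± 1.4 CPM and from 11.9 ± 3.3 to 7.61 ± 0.58 CPM. At the higher one, 1 of the 3 libraries without Nanog reached the level of the count filter, so it is read as a description. The higher call was lost when library B of either line was left out, and the lower one was lost with DESeq2 (adjusted p = 0.0776) and when any library but A or B without Nanog was. Lhx5 had 1 lower call, lost with DESeq2 (adjusted p = 0.149) and in each of the 6 fits with a library left out. It held in 4 of the 14 alternative fits that tested it. Lhx1, Lhx6 and Lhx9 had none.

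Nkx genes, NK-type homeobox factors of the neural tube, gut and heart, had 4 higher and 2 lower calls among 47 tested regions. That is 12.8%, against 19.2% of all regions, and the calls lay at 4 of 14 genes. Nkx6-3, a factor of the stomach and hindbrain, held 3 of the 4 increases among its 5 regions, 2 of them read as descriptions below. Its strongest region, 4.2 kb away (chromosome 8, 23162747 to 23163604), held 17.2, 19.4 and 17.1 CPM without Nanog and 43.6, 45.6 and 42.6 CPM with Nanog. Both groups are tight and far apart, and the log2 fold change of 1.30 ± 0.15 had the smallest adjusted p of all members (edgeR, adjusted p = 2.39e-07). A region inside Nkx6-3 at 23158139 to 23158466 rose from 2.38 ± 1.5 to 6.22 ± 0.30 CPM and the region at 23161300 to 23161551 from 2.86 ± 1.1 to 5.62 ± 1.7 CPM, the latter call being lost when C without Nanog, B with Nanog or C with Nanog was left out and with DESeq2 (adjusted p = 0.0885). At the regions starting at 23158139 and 23161300, 2 of the 3 libraries without Nanog reached the level of the count filter, so both calls are read as descriptions. The remaining 2 regions of this gene had log2 fold changes of 0.79 and 0.41 and were not called.

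Nkx6-2, a related factor of the neural tube and of oligodendrocytes, held 1.86, 3.93 and 5.10 CPM without and 9.19, 10.7 and 12.2 CPM with Nanog inside the gene, at 139579392 to 139579836 on chromosome 7. The log2 fold change was 1.46 ± 0.28 (edgeR, adjusted p = 0.000334), and its stronger region, 8.7 kb away, was at 0.04. The 7 regions of Nkx6-1 were not called, with log2 fold changes from -0.28 to 0.65. Nkx1-2, known from the caudal epiblast, fell from 22.9 ± 5.0 to 14.9 ± 1.3 CPM inside the gene at 132597616 to 132598124, while a region 1.6 kb outside held 15.3 ± 0.78 and 20.5 ± 1.8 CPM and was not called (edgeR, adjusted p = 0.0857). The lower call was lost when C without Nanog or A with Nanog was left out. Nkx2-3, a factor of spleen and gut mesenchyme, fell from 14.9, 11.2 and 12.7 CPM to 6.56, 5.54 and 8.03 CPM, with no overlap, in a region on chromosome 19 (43623769 to 43624200). The log2 fold change there was -0.94 ± 0.22 (edgeR, adjusted p = 0.00334). Nkx2-1, Nkx2-2, Nkx2-4, Nkx2-5, Nkx1-1 and Nkx3-2 had no call.

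The Six-type genes, homologs of sine oculis that act in eye, muscle, ear and kidney, had 4 lower and 0 higher calls among 28 regions by edgeR, DESeq2 and limma-voom alike (14.3% lower, against 9.78% of all regions by edgeR). At an unadjusted p under 0.05 edgeR gave 1 higher and 5 lower (3.57% and 17.9%, against 15.2% and 16.4% of all regions). Six3, a factor of the anterior forebrain and eye, held 2 of the 4 calls. Inside the gene, at 85616181 to 85616403 on chromosome 17, signal was 7.83, 4.21 and 8.82 CPM without and 2.04, 0.943 and 3.19 CPM with Nanog, a log2 fold change of -1.79 ± 0.34 (edgeR, adjusted p = 0.000365). Of the 3 libraries with Nanog 2 reached the level of the count filter there, so the call and its p-value are read as descriptions. This region is the 1 member found in the peak list without Nanog alone. A region 0.6 kb outside Six3 held 10.1, 9.54 and 10.0 CPM without and 6.27, 4.36 and 3.82 CPM with Nanog, again with no overlap. Six2, a factor of nephron progenitors and a neighbour of Six3, fell from 8.90 ± 2.6 to 3.94 ± 0.47 CPM 27.7 kb away. The strongest region of these genes, 13.0 kb from Six4, was stronger than 98.9% of all regions and held 61.1, 68.7 and 75.9 CPM without and 74.7, 81.3 and 75.8 CPM with Nanog. The lines overlap there and the log2 fold change was 0.16 ± 0.11.

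Dlx genes, distal-less factors of the forebrain, face, skin and placenta, had 1 call each way among 16 tested regions (12.5%, against 19.2% of all regions). Dlx4 fell in a region 37.3 kb away (chromosome 11, 95183324 to 95183842), from 22.4, 18.0 and 24.7 CPM to 13.3, 7.31 and 12.0 CPM. The groups were well apart and the log2 fold change was -1.02 ± 0.21 (edgeR, adjusted p = 0.0007). Dlx3, its neighbour, rose 1.6 kb from the gene from 8.95, 16.5 and 19.4 CPM to 20.7, 25.1 and 23.8 CPM, and its log2 fold change was 0.58 ± 0.19 (edgeR, adjusted p = 0.0340). The libraries just fail to overlap at Dlx3, and the call was lost with DESeq2 (adjusted p = 0.0623) and when A without Nanog, B with Nanog or C with Nanog was left out. Dlx1, Dlx2 and Dlx5 had no call and no region was nearest to Dlx6.

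Irx genes, Iroquois factors of the heart, neural tube and limb, had the largest share of calls of the 10 families. By edgeR 7 of 21 regions were called (33.3%, against 19.2% of all regions), 4 higher and 3 lower. The 4 include the Irx5 region described below as one that had to differ. DESeq2 called 1 higher and 2 lower. At 12 of 21 regions (57.1%, against 33.8% of all) the libraries of the lines did not overlap. These differences from all regions were not tested. Irx4, a factor of the cardiac ventricle, held 3 of the increases. Inside the gene at 73259607 to 73259951 on chromosome 13 it rose from 7.08, 5.89 and 5.10 CPM to 10.6, 15.7 and 13.4 CPM, every library with Nanog above every library without. The log2 fold change was 1.18 ± 0.24 (edgeR, adjusted p = 0.000709). The other 2 Irx4 increases, to 9.26 ± 1.0 and 7.70 ± 0.65 CPM, were lost with DESeq2. With a library left out, the first was kept without B without Nanog and the second without A or B without Nanog, and both were lost in the other such fits. A distal Irx4 region 46.9 kb away fell from 5.86 ± 0.48 to 3.15 ± 0.14 CPM, and that call was lost with DESeq2 (adjusted p = 0.0812) and when any library but A or B without Nanog was left out.

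A region 41.6 kb from Irx5, at 92402888 to 92403188 on chromosome 8, entered the test through the libraries with Nanog alone, since 0 of the 3 without Nanog reached the level of the count filter. A region that passes in this way had to differ, so its values are given as a description. The libraries without Nanog held 3, 1 and 3 reads there and those with Nanog 27, 57 and 35, or 1.12, 0.281 and 0.588 CPM against 3.94, 6.72 and 4.46 CPM. Summed over the libraries the ratio was 8.32, with an exact 95% interval of 3.91 to 21.1 that covers counting error only. With 7 reads in 1 arm the size of the change is poorly known, and the region was stronger than only 1.53% of all regions. Irx2 fell 41.8 kb away, from 38.0, 32.5 and 42.2 CPM to 22.9, 15.0 and 25.1 CPM, without overlap. This was the strongest Irx region, and its log2 fold change was -0.85 ± 0.17 (edgeR, adjusted p = 0.000544). Irx3 fell 12.1 kb away, from 11.4 ± 1.8 to 6.53 ± 0.50 CPM, a call lost when C without Nanog was left out. The plot of the called regions gives each of these by library.

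**Figure D4:**
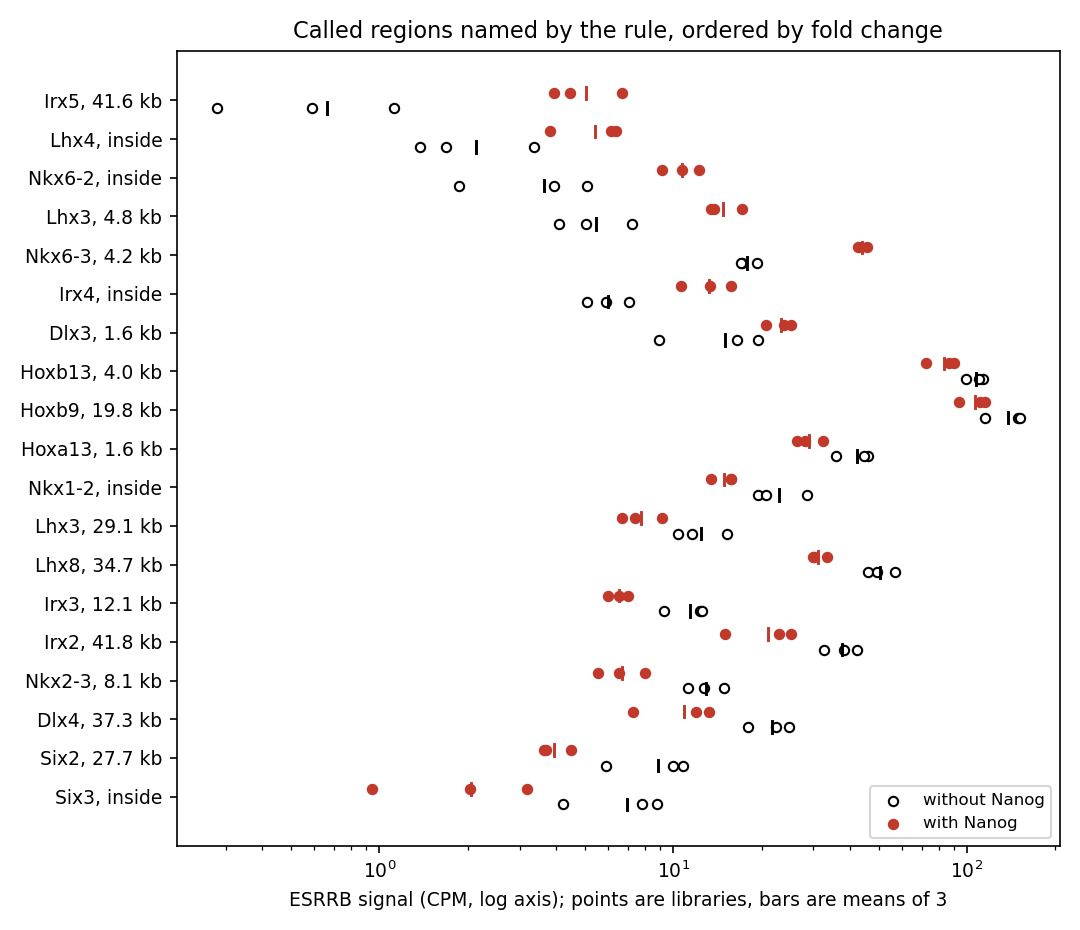
ESRRB signal (x axis, CPM on a log axis) in each library at the called regions named by the rule, ordered by fold change and labelled with the gene and the distance to it. Open circles are libraries without Nanog, red circles those with Nanog and bars the means of 3; the groups are apart in all rows except Hoxb9, where they touch at 115 CPM.

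Msx genes, factors of the face and limb, had no call among 11 tested regions by edgeR, DESeq2 or limma-voom. At an unadjusted p under 0.05 edgeR gave 0, where 15.2% of all regions were higher and 16.4% lower. Log2 fold changes ran from -0.55 to 0.34. Msx1 had 8 regions, as many as Hoxb1 and Lhx4 and more than any other gene, with means of 1.73 to 12.3 CPM without and 2.05 to 9.66 CPM with Nanog. The strongest Msx region, 5.3 kb from Msx2, held 29.1, 24.4 and 25.5 CPM without and 25.5, 29.5 and 30.2 CPM with Nanog, which overlap.

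Of the 69 genes with a region, 5 had only higher calls, 12 only lower calls, 4 both and 48 none. The 4 with both were Lhx2, Lhx3, Lhx8 and Irx4. By position, inside genes 7 regions rose and 3 fell of 81 tested, up to 5 kb outside 5 rose and 4 fell of 74, and from 5 to 50 kb 2 rose and 11 fell of 82. These counts include the 5 higher and 1 lower calls read as descriptions because of the count filter. Inside genes these start at 155717359, 38340781 and 23158139 (higher) and 85616181 (lower), up to 5 kb outside at 23161300, and further out at 92402888. Over all regions within 50 kb of a gene the shares higher and lower were 9.76% and 8.06% inside, 5.93% and 9.01% up to 5 kb, and 9.27% and 12.8% from 5 to 50 kb. The difference between members and other regions was not tested.

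In the deposited peak lists, 64 members (26.3%) overlapped a peak of both lines by at least 1 bp, 178 (73.3%) a peak with Nanog alone and 1 a peak without Nanog alone. The shares over the whole table were 37.8%, 61.4% and 695 regions. Regions in both lists were stronger, with a median log-CPM of 3.67 against 2.30 for those in the list with Nanog alone. In both lists 2 members rose and 15 fell of 64, while in the list with Nanog alone 12 rose and 2 fell of 172 tested. All regions within 50 kb of a gene divide in the same directions, with 7.30% higher and 19.9% lower in both lists and 10.3% higher and 1.83% lower in the list with Nanog alone. The lists come from the same libraries as the counts, so the direction is not independent of the list. There is 1 list per line, with no replicate error. Of the 55 tested Hox regions in the list with Nanog alone 0 were called by edgeR, 7 were higher and 0 lower at an unadjusted p under 0.05, and in 9 (16.4%) the lines were apart. Over all regions of that list within 50 kb of a gene 12.2% were called, 17.3% were higher and 5.59% lower at an unadjusted p under 0.05, and the lines were apart in 26.3%.

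Other homeobox genes and the retinoic acid pathway, which is known to induce Hox genes, were read by the same rule from 4 lists. TALE homeodomain cofactors, here the Pbx, Meis, Pknox and Tgif genes with Mkx, had 17 higher and 7 lower calls among 113 tested regions (21.2%). ParaHox genes, the Cdx, Gsx and Pdx1 relatives of Hox genes, had 2 and 5 among 21 (33.3%). A list of further homeobox genes had 27 and 17 among 261 (16.9%), and retinoic acid pathway genes had 5 and 9 among 82 (17.1%). The median log2 fold changes were 0.07, -0.11, 0.01 and -0.04. These shares stand beside 3.90% for the Hox families and 19.2% for all regions, with no test between them.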

How the data were processed

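ESRRB ChIP-seq libraries, 3 per line, were analysed. The 6 input libraries have no column in the count table and were not used here. The authors deposited 1 table of whole-number read counts over 86201 regions and 1 peak list per line, whose coordinates are plain positions on mm10. Per the submitters' processing notes, bcl2fastq 2.19.1, Bowtie2, SAMtools 1.4.1, deepTools, MACS2 and bedtools 2.26.0 were used. Their order and settings, not given in the sources used here, stay unknown, as does whether the input was subtracted or how the regions were merged.

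Each region took the closest protein-coding gene of RefSeq GRCm38.p6. Ties inside overlapping genes went to a family gene, and among those to the shortest. The members and gene lists were chosen with earlier results of these data known. Counts were filtered with filterByExpr (1309 regions removed), scaled by TMM and tested with edgeR 4.0.16 (quasi-likelihood, R 4.3.3), with Benjamini-Hochberg adjustment over 84892 regions. Log-CPM used a prior count of 2. Standard errors are the log2 fold change over the square root of F. The test was checked on simulated data. DESeq2 1.42.0 and limma 3.58.1 served as alternatives, with other scalings, filters, distances and each library left out. Overlap with peaks was found with bedtools 2.31.1.

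Regions are named by a rule: in each family the strongest, up to 2 higher and 2 lower calls by adjusted p with 1 per gene and direction, and up to 2 of the strongest that cover a start. Other regions named were chosen after their values were seen. No pair of libraries of a line agreed within counting noise. Intervals of summed counts cover counting error only. Results for some genes of these families are not reported here.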

Additional observations from a re-analysis of the deposited data

How the results depend on the processing

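Against 14 higher and 18 lower regions as reported, a mean count of at least 50 left 5 higher, DESeq2 gave 7 higher, a limit of 100 kb 22 higher, a limit of 20 kb 10 lower, and regions inside genes alone 7 higher and 3 lower. The smaller counts under the count minimum and the nearer limits come with fewer regions tested. With the count minimum 77 members were tested and 22.1% of them called, against 31.7% of all regions. Inside genes 12.3% of 81 members were called, against 17.8% of all regions inside a gene. With DESeq2 the shares were 8.02% of members and 12.0% of all regions. For DESeq2 the cause was not tested. Leaving out each library in turn gave 8 to 14 higher and 8 to 21 lower. The share called was then 7.88% to 14.5% of members and 11.5% to 21.4% of all regions. Of the 32 called regions 14 were called in every fit that tested them, and 0 changed direction in any of the 15 alternative fits. As libraries were left out, the uncalled regions over the starts of Hoxa5, Hoxb4, Msx2 and Six4 changed sign, with log2 fold changes from -0.18 to 0.083 at Hoxa5 (region of Hoxa3), from -0.084 to 0.35 at Hoxb4 (region of Hoxb3), from -0.109 to 0.533 at Msx2 and from -0.075 to 0.265 at Six4. The Hoxb3 region also stood at -0.029 and -0.009, and the Six4 region at -0.059. Using the wider peaks of each list, 31 members were in both lists, 85 in the list with Nanog alone and 0 in the list without Nanog alone.

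The count columns carry letters, not the replicate numbers of the labels, so the letters were not taken as pairs. A replicate block by column letter gave 18 higher and 19 lower regions. The share called was then 15.6% of members against 24.6% of all regions, where it was 13.5% against 19.2% as reported. The deviations of same-letter libraries correlated at 0.083, 0.22 and 0.13 over regions, those of unlike letters at -0.16 to 0.045.

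Depth limits the libraries without Nanog most, and weak regions there rest on few reads.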
